A study of Mus musculus with 17 samples.

Results

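The Schlafen family was followed through 7 mouse genes, Slfn1, Slfn2, Slfn3, Slfn4, Slfn5, Slfn8 and Slfn9, in spleens of mice given RNA. The members were the lines of the deposited expression table whose gene name equals one of these symbols, 1 line each, and made up 7 of 38340 genes. All 7 passed the filter on low values (at least 1 CPM in at least 2 libraries), as did 14010 genes in all. Spleen RNA was sequenced in 17 libraries from mice of the strain written CB57BL/6NCrl. The groups were SLR10, SLR14, poly(I:C) and pppNS (3 libraries each), jetPEI vehicle (2 libraries) and untreated naive mice (3 libraries). SLR10 and SLR14 are stem-loop RNAs that differ in the length of their stem, and RIG-I, which the series title names, is a receptor that detects viral RNA in the cytosol. Poly(I:C) mimics long viral double-stranded RNA, and the labels do not expand the name pppNS. Mice given an SLR received 25 µg of RNA intravenously (200 µl), carried by the polymer in vivo-jetPEI (N/P 8), per the labels. The labels repeat that text for every library and name no dose of poly(I:C) or pppNS. Age, sex and the time from injection to collection are not given in the sources used here, and no genotype other than the strain is named.

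Schlafen proteins share a core domain that in several members binds or cleaves RNA, transfer RNA in particular. The genes were first described in mouse thymocytes, where their levels change as T cells develop and become active, and many of them are transcribed in response to type I interferon. By protein structure the mouse genes fall into a short class (Slfn1 and Slfn2), an intermediate class (Slfn3 and Slfn4) and a long class with a helicase-like end (Slfn5, Slfn8 and Slfn9). In a bulk spleen sample, fewer cells of a type and less RNA per cell cannot be told apart.

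All 7 genes lie in one cluster on chromosome 11 of the GRCm38 build, chr11:82951349-83215154, which spans 264 kb (GENCODE vM21). From the lower end the order was Slfn5 (82951349 to 82964840, + strand), Slfn9 (82978390 to 82991830, - strand), Slfn8 (83002158 to 83020810, - strand), Slfn2 (83065112 to 83070678, +), Slfn1 (83116849 to 83122670, +), Slfn4 (83175186 to 83190216, +) and Slfn3 (83191330 to 83215154, +). All 7 are annotated as protein-coding. The pseudogene Slfn10-ps lies between Slfn8 and Slfn2, and Slfn14 lies beyond Slfn3 at 83275110 to 83286726 on the - strand. Several members are close copies of each other. Of all 50-base stretches of a gene's annotated transcripts, the share found in another gene of the family was 14.6% for Slfn8, 11.2% for Slfn9, 8.15% for Slfn4, 7.39% for Slfn3, 4.27% for Slfn2, 0.606% for Slfn1 and 0% for Slfn5. Values of Slfn8 against Slfn9 and of Slfn3 against Slfn4 are therefore uncertain to the extent that the authors' counting could split such reads. In one alternative Slfn3 and Slfn4 were summed, as were Slfn8, Slfn9 and Slfn10-ps, and each gene took the value of its sum. Genes of the same sum then pass or fail together. Every comparison below kept its number of members past the threshold except pppNS against vehicle. Slfn3 lay below Slfn4 and Slfn9 below Slfn8 in every library, so the sums cannot decide whether Slfn3 and Slfn9 pass by themselves.

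The stretches before the start sites are shown because some members share short runs of letters there. Whether these runs bear on the levels was not tested. They are RefSeq promoters (GRCm38.p6), read 5′ to 3′ on the gene's strand and ending at the base before the start, except for Slfn5, whose stretch runs from base -180 to base -121. The RefSeq start of Slfn5 lies 753 bases inside the GENCODE gene, and that of Slfn1 lies 29 bases before it. Capitals in the first 3 lines mark matches to GAAANNGAA on either strand, a short form of the element bound by interferon regulatory factors. Capitals in the next 3 lines mark an 11-base run that Slfn1, Slfn2 and Slfn4 share, which was picked after the promoters were seen.
Slfn5, chr11:82951922-82951981, + strand: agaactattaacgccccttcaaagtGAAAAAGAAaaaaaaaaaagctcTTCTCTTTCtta
Slfn8, chr11:83020811-83020930, - strand: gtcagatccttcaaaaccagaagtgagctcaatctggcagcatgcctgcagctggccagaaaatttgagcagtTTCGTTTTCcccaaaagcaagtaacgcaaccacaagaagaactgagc
Slfn9, chr11:82991831-82991950, - strand: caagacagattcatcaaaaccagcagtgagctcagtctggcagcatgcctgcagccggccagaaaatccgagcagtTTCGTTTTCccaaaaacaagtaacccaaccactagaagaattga
Slfn1, chr11:83116700-83116819, + strand: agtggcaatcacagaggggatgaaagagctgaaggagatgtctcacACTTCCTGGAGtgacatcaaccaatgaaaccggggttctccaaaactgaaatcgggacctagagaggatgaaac
Slfn2, chr11:83064992-83065111, + strand: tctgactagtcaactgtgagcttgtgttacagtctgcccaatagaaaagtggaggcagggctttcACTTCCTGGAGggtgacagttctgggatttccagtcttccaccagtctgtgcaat
Slfn4, chr11:83175066-83175185, + strand: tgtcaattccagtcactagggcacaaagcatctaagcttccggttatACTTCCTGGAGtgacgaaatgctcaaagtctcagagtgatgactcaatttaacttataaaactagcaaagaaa

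Of the long class, Slfn8 held its match at base -47, Slfn9 at base -44 and Slfn5 at bases -155 and -132, counted from the start site. The windows searched ran from 250 bases before to 50 bases after the start, and GAAANNGAA was in 8.56% of all 32851 promoters of that length. It was in none of the windows of Slfn1, Slfn2, Slfn3 and Slfn4. Slfn14, which is not a member and passed in no comparison with vehicle, held a match at base -197. TTCNNNGAA, the short form of the element bound by STAT factors, was in 8.30% of promoters and in no window of the 7 members. The run ACTTCCTGGAG stood at base -74 in Slfn1, -55 in Slfn2 and -73 in Slfn4, and was in 24 of the 32851 promoters (0.0731%). Its first 9 bases, ACTTCCTGG, were also in Slfn3, and Slfn2 and Slfn3 shared another run of 11 bases, GGAGGGACTCT. Slfn8 and Slfn9 shared a 20-base run, TCTGGCAGCATGCCTGCAGC, which stands upstream of the match in both printed stretches. A match is a description of the letters, and its absence says nothing about which factors act on a gene.

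Levels are given as CPM, counts scaled by a library size that the authors normalised with edgeR. Libraries held 26.5 to 42.8 M reads, and 1 read was worth 0.0175 to 0.0431 CPM. Members were covered by 11 reads (Slfn3 in naive library 3) to 72463 reads (Slfn5 in poly(I:C) library 1). Marker genes of spleen cells were present in all libraries, including Spic of red pulp macrophages (59.2 to 199 CPM) and Tlx1 of spleen stroma (1.56 to 27.1 CPM). A set of 17 erythroid markers differed within groups. Its summed level was 34371 CPM in SLR14 library 2 and up to 42947 CPM in poly(I:C) libraries 2 and 3, against 4436 CPM in the lowest SLR14 library and 3819 CPM in poly(I:C) library 1. The labels number the libraries of a group without saying that each is a different mouse, so p-values measure the spread between these libraries, which may be technical.

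Every one of the 7 genes was higher after SLR10, SLR14 and poly(I:C) than after vehicle, in every library. All libraries of the agent lay above both vehicle libraries for 40.1% of all genes after SLR10, 35.2% after SLR14 and 33.4% after poly(I:C). The family's summed level was 289 and 295 CPM in the vehicle libraries and 201 to 230 CPM in naive mice. It was 3556 to 3622 CPM after SLR10, 2697 to 3967 CPM after SLR14 and 2880 to 4761 CPM after poly(I:C). After pppNS it was 616 to 1466 CPM, between the control and the other treated libraries.

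**Figure D1:**
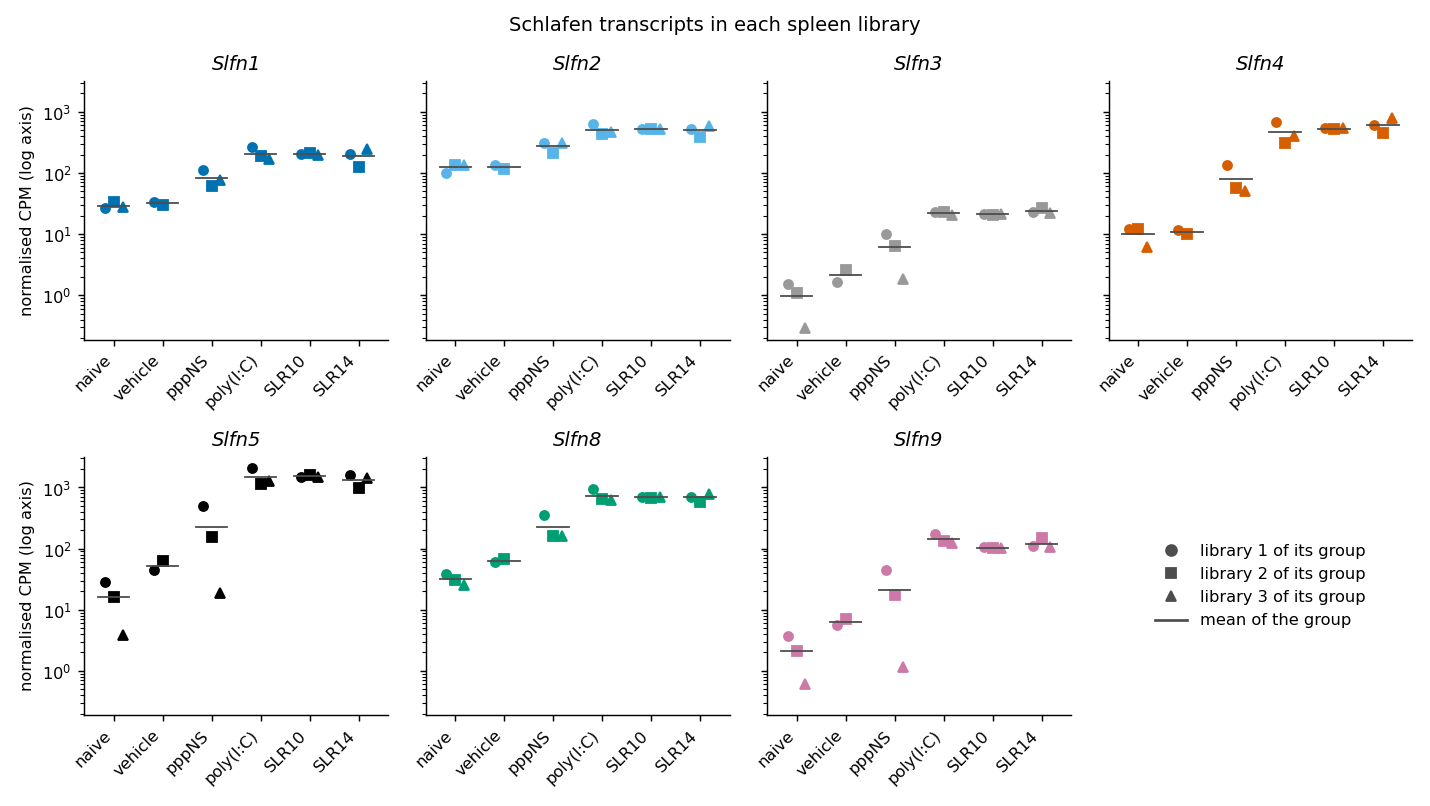
Level of each member in every library, as normalised CPM on a log axis, with 1 panel per gene, 1 symbol per library number and a bar at each group's mean. All SLR10, SLR14 and poly(I:C) points lie above all vehicle and naive points, and pppNS library 3 and naive library 3 are the lowest of their groups for Slfn3, Slfn4, Slfn5, Slfn8 and Slfn9.

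Slfn4, of the intermediate class, is known from myeloid cells, where interferon and microbial products raise it. It was measured at 11.5 and 9.87 CPM in the vehicle libraries and at 11.9, 12.3 and 6.07 CPM in naive mice. It reached 540, 514 and 542 CPM after SLR10, 599, 457 and 792 CPM after SLR14, and 674, 310 and 399 CPM after poly(I:C). The lowest of these 9 libraries, 310 CPM, stood far above the highest control library, 12.3 CPM. On the log2(CPM + 0.5) scale used for all tests, Slfn4 rose by 5.58 ± 0.42 (SE) after SLR10 (47.8-fold, 95% interval 25.7 to 88.8, limma adjusted p = 3.06e-07). The rise was 5.75 ± 0.42 after SLR14 (adjusted p = 2.09e-07) and 5.30 ± 0.42 after poly(I:C) (adjusted p = 4.70e-07). Among the 14010 genes tested, the rise of Slfn4 ranked 30th, 30th and 36th in these comparisons, all of which use the same vehicle libraries.

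Slfn3, the other intermediate gene, stands next to Slfn4 in the cluster and was the least abundant member. It lay at 1.63 and 2.58 CPM after vehicle and at 1.55, 1.07 and 0.292 CPM in naive mice. After SLR10 it was at 21.3, 20.8 and 21.1 CPM, after SLR14 at 23.3, 26.6 and 22.0 CPM, and after poly(I:C) at 23.3, 23.1 and 20.4 CPM. These 9 values span a narrow band far above the controls. The log2 rise was 3.07 ± 0.49 for SLR10 (adjusted p = 0.000183), 3.25 ± 0.49 for SLR14 and 3.15 ± 0.49 for poly(I:C).

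Slfn5, a long-class gene that has been studied as an interferon-responsive regulator of growth, had the highest CPM of the family after these agents. The vehicle libraries held 44.3 and 61.6 CPM and the naive libraries 28.6, 16.1 and 3.84 CPM. Slfn5 was at 1506, 1581 and 1469 CPM after SLR10, at 1589, 983 and 1428 CPM after SLR14, and at 2045, 1155 and 1273 CPM after poly(I:C). These treated and control libraries did not overlap. On the log2 scale the naive libraries differed among themselves more than those of SLR10, SLR14 or poly(I:C) did, though not in CPM. The log2 rise was 4.85 ± 0.99 for SLR10 (28.8-fold, interval 6.63 to 125, adjusted p = 0.00132), 4.63 ± 0.99 for SLR14 and 4.78 ± 0.99 for poly(I:C). The error is wide because limma pools the spread over all 6 groups, and Slfn5 was most scattered in the pppNS and naive groups.

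Slfn8 and Slfn9, the other long-class genes, lie side by side and are close copies. Slfn8 was at 59.7 and 67.0 CPM after vehicle and at 39.0, 30.4 and 25.6 CPM in naive mice. It rose to 700, 681 and 698 CPM after SLR10, 706, 580 and 777 CPM after SLR14, and 939, 642 and 630 CPM after poly(I:C). With log2 differences of 3.44 ± 0.30, 3.42 ± 0.30 and 3.51 ± 0.30 (adjusted p = 1.17e-06, 1.18e-06 and 1.04e-06), Slfn8 had almost the same rise in all 3 comparisons. Slfn9 lay lower throughout, at 5.58 and 7.05 CPM after vehicle and at 3.72, 2.08 and 0.610 CPM in naive mice. It was at 105, 103 and 101 CPM after SLR10, 110, 147 and 105 CPM after SLR14, and 176, 135 and 122 CPM after poly(I:C). Its treated libraries all lay above 100 CPM and its controls all below 8 CPM. The log2 rise of Slfn9 was 3.93 ± 0.93, 4.14 ± 0.93 and 4.40 ± 0.93 (adjusted p = 0.00383, 0.00273 and 0.00198).

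The short-class genes had the smallest fitted differences of the family in these 3 comparisons. Slfn2, whose loss is known to make T cells leave quiescence, was at 134 and 117 CPM after vehicle and at 100.5, 134 and 137 CPM in naive mice. It was at 529, 514 and 532 CPM after SLR10, 532, 381 and 596 CPM after SLR14, and 637, 428 and 473 CPM after poly(I:C). The lowest treated library was still above every control library. Slfn2 rose by 2.07 ± 0.24 after SLR10 (4.19-fold, interval 2.94 to 5.96, adjusted p = 1.12e-05), by 1.98 ± 0.24 after SLR14 and by 2.01 ± 0.24 after poly(I:C). Slfn1, which restrains thymocyte growth when forced on, was at 32.9 and 30.4 CPM after vehicle and at 26.3, 33.6 and 27.6 CPM in naive mice. It was at 204, 210 and 194 CPM after SLR10, 201, 123 and 248 CPM after SLR14, and 268, 186 and 166 CPM after poly(I:C). Its log2 rise was 2.66 ± 0.29, 2.52 ± 0.29 and 2.66 ± 0.29 (adjusted p = 7.61e-06, 1.22e-05 and 8.67e-06). SLR14 library 2, the library of its group with high erythroid transcripts, had the lowest Slfn1, Slfn2, Slfn4, Slfn5 and Slfn8 of its group and the highest Slfn3 and Slfn9. The part of the erythroid transcripts in these values was not tested.

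In all, 7 of 7 members passed an adjusted p of 0.05 upward after SLR10, where 20.2% of all genes did so. The same count was 7 of 7 after SLR14, against 19.3% of all genes, and 7 of 7 after poly(I:C), against 18.6%. The members' median log2 difference was 3.44, 3.42 and 3.51, where the median of all genes was -0.01, 0.04 and 0.07. These calls held in limma with 1 library of the agent left out at a time, in edgeR and in DESeq2. With the erythroid-high libraries left out, 7 of 7 also passed after SLR14. That choice leaves 1 poly(I:C) library, so no count is read for poly(I:C). With naive mice in place of vehicle as the control, 7 of 7 members passed for each of the 3 agents.

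**Figure D2:**
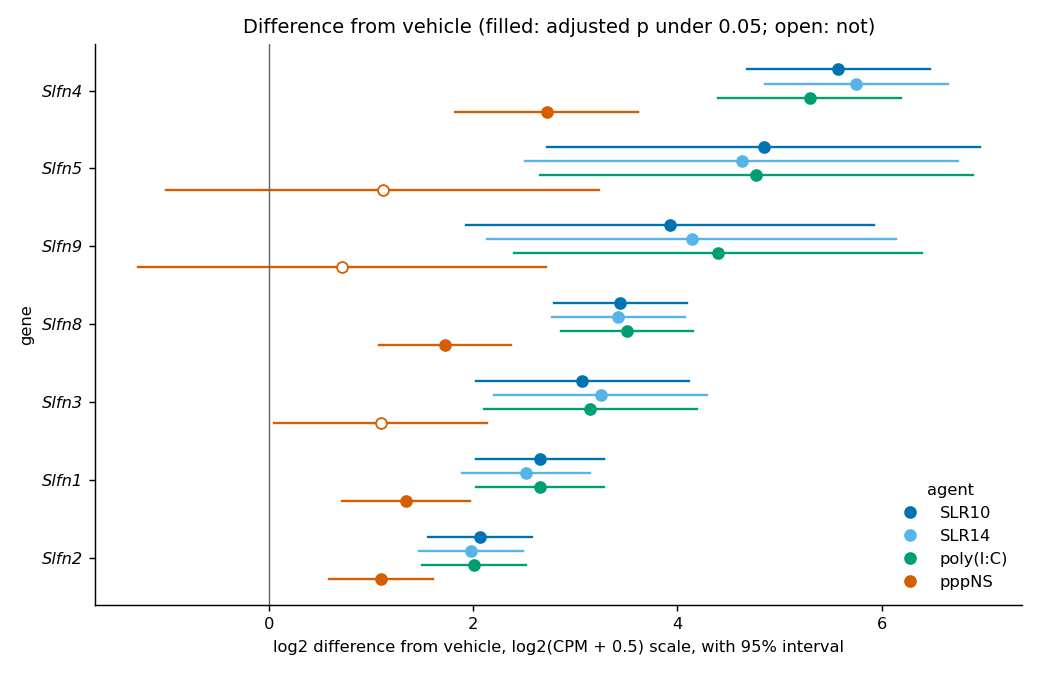
Fitted log2 difference from vehicle with its 95% interval for each member and agent, with filled points for an adjusted p under 0.05. SLR10, SLR14 and poly(I:C) points nearly coincide within a gene and run from about Slfn2 (2.07 for SLR10) to Slfn4 (5.58), while pppNS lies lower, with open points for Slfn3, Slfn5 and Slfn9.

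The effect of stem length was addressed by SLR14 against SLR10, and no member passed the test. In limma, 0 of 7 members passed, 0 of 7 had an unadjusted p under 0.05, and 0% of all genes passed (89 of 14010 had an unadjusted p under 0.05). edgeR and DESeq2 also called 0 members. The log2 difference was 0.18 for Slfn4 (95% interval -0.62 to 0.98), 0.18 for Slfn3 (-0.76 to 1.11), -0.02 for Slfn8 (-0.60 to 0.56) and -0.14 for Slfn1 (-0.70 to 0.42). The tightest interval was that of Slfn2, -0.09 (-0.54 to 0.37). Slfn5 (-0.22, interval -2.11 to 1.68) and Slfn9 (0.21, -1.58 to 2.00) had the widest intervals. SLR14 libraries all lay above the SLR10 libraries for Slfn3 and Slfn9, as they did for 4.54% of all genes.

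Both SLRs together were compared with poly(I:C) in the same way. In limma 0 of 7 members passed, where 3.5% of all genes did, and edgeR and DESeq2 called 0 members. Slfn4 had a log2 difference of 0.37 (interval -0.32 to 1.06) and Slfn9 one of -0.37 (-1.91 to 1.18). The others lay between -0.08 (Slfn8, interval -0.58 to 0.43) and 0.01 (Slfn2, -0.38 to 0.41, and Slfn3, -0.80 to 0.82). By contrast Ifnb1, the gene of interferon beta, was at 158 to 250 CPM after SLR10 and at 45.6 to 76.9 CPM after poly(I:C), in groups that did not overlap.

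After pppNS the members fell into 2 sets. Slfn4 was at 134, 56.1 and 51.5 CPM, Slfn8 at 356, 162 and 161 CPM, Slfn1 at 113, 61.2 and 76.7 CPM and Slfn2 at 307, 208 and 305 CPM. For these 4 genes all pppNS libraries lay above both vehicle libraries, as they did for 22.9% of all genes. They rose by 2.72 ± 0.42 (Slfn4, 6.60-fold, adjusted p = 0.00166), 1.73 ± 0.30 (Slfn8, 0.00454), 1.34 ± 0.29 (Slfn1, 0.0168) and 1.10 ± 0.24 (Slfn2, 0.0159), limma with Benjamini-Hochberg adjustment. Thus 4 of 7 members passed upward against 2.96% of all genes, and the members' median log2 difference was 1.12. Without vehicle library 1, or without vehicle library 2, the count was 1, and with only pppNS and vehicle libraries in the fit it was 0. edgeR called 3 members and DESeq2 4. Of the 4 genes, Slfn2 did not pass in edgeR (adjusted p = 0.0589) or in limma with quantile scaling (adjusted p = 0.0884).

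Slfn5, Slfn9 and Slfn3 did not pass after pppNS, and their 3 libraries were far apart. Slfn5 was at 501, 154 and 18.8 CPM, so that library 1 stood far above and library 3 below both vehicle libraries. Slfn9 was at 44.7, 17.7 and 1.17 CPM and Slfn3 at 10.1, 6.26 and 1.81 CPM. For each of these genes the pppNS group overlapped vehicle only through library 3. The log2 differences were 1.12 ± 0.99 for Slfn5 (interval -1.003 to 3.23, adjusted p = 0.467), 0.72 ± 0.93 for Slfn9 (-1.28 to 2.71, 0.621) and 1.10 ± 0.49 for Slfn3 (0.05 to 2.14, 0.202). Without pppNS library 3 they were 2.40 for Slfn5 (limma adjusted p = 0.0778), 2.08 for Slfn9 (0.0319) and 1.72 for Slfn3 (0.0124), and 6 of 7 members passed. Without pppNS library 1 they were 0.05, -0.30 and 0.63. With naive mice as the control 6 of 7 passed.

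Libraries of the pppNS and naive groups deviated from their group mates in a way that went with transcript length over all genes. In pppNS library 3 the median gene with a longest annotated transcript of up to 1 kb lay 0.87 above the mean log2 level of the other 2 libraries, and the median gene over 6 kb lay 0.64 below it (-0.64). The same medians were 0.28 and -0.36 in naive library 3, and -0.31 and 0.35 in naive library 1, which deviated as much in the opposite direction. Naive library 2 stayed near 0. The 11 libraries of SLR10, SLR14, poly(I:C) and vehicle stayed between -0.14 and 0.22 in all 5 length classes. The members followed a like order in pppNS library 3. Slfn2 (1.66 kb) deviated by 0.27 and Slfn1 (1.86 kb) by -0.12, Slfn4 (3.96 kb) by -0.75 and Slfn8 (4.01 kb) by -0.57, and Slfn9 (5.77 kb) by -4.10 and Slfn5 (5.98 kb) by -3.85. Slfn3 (2.83 kb) was out of this order at -1.87. In naive library 3 the values were 0.24 for Slfn2, -0.10 for Slfn1, -1.18 for Slfn3, -0.94 for Slfn4, -0.42 for Slfn8, -1.57 for Slfn9 and -2.34 for Slfn5. Naive library 1 lay above its group mates by 1.77 for Slfn5, 1.32 for Slfn9 and 0.88 for Slfn3. In pppNS library 3 and naive library 3, Slfn5, Slfn9 and Slfn3 lay further below their group mates than their length class's median gene. That class was 4 to 6 kb for Slfn5 and Slfn9 and 2 to 4 kb for Slfn3. Across 57 interferon-stimulated genes, not split by transcript length, the mean log2 level was 8.11, 7.07 and 8.16 in the pppNS libraries, where library 3 was not low. In the naive libraries it was 5.28, 5.26 and 5.09, where library 3 was the lowest. The 17 erythroid markers summed to 76834 CPM in pppNS library 3, the highest of all libraries, and the part of length or of erythroid RNA in the Schlafen values was not tested. With library 3 of both groups left out, an alternative added after the data were seen, 7 of 7 members passed in pppNS against vehicle.

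**Figure D3:**
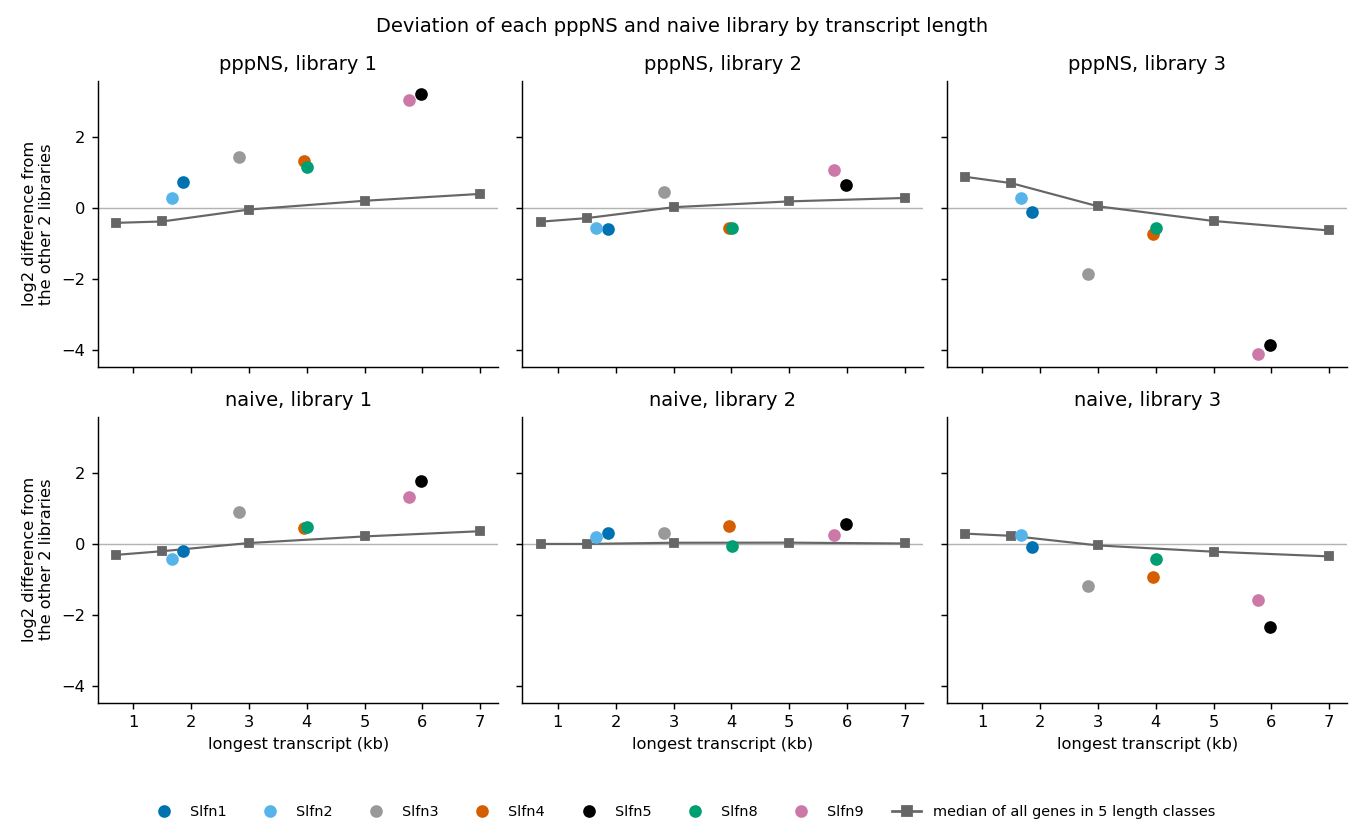
Deviation of each pppNS and naive library from the mean log2 level of the other 2 libraries of its group, against the longest annotated transcript (kb), for the 7 members (coloured points) and the median of all genes in 5 length classes (grey squares, drawn at 1 fixed place per class). In pppNS library 3 the grey line runs from 0.87 to -0.64, and Slfn5 (-3.85) and Slfn9 (-4.10) lie far under it.

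All 7 members were higher after the SLRs than after pppNS. In the fit of both SLRs against pppNS, 7 of 7 members passed upward against 22.8% of all genes, and poly(I:C) against pppNS gave 7 of 7 against 15.4%. With only the poly(I:C) and pppNS libraries in the fit, 1 of 7 passed, Slfn4 (limma adjusted p = 0.0367), and with quantile scaling Slfn2 did not pass (0.44, adjusted p = 0.167). Both comparisons use the same pppNS libraries. The SLR differences were 2.94 ± 0.32 for Slfn4 (limma adjusted p = 1.13e-05), 1.71 ± 0.23 for Slfn8 (7.07e-05), 1.25 ± 0.23 for Slfn1 (0.000612) and 0.92 ± 0.18 for Slfn2 (0.00124). All 6 SLR libraries lay above all 3 pppNS libraries for each of the 7 genes, as they did for 19.3% of all genes. For Slfn5, Slfn9 and Slfn3 the differences of 3.62 ± 0.76, 3.32 ± 0.72 and 2.06 ± 0.38 (adjusted p = 0.00181, 0.00222 and 0.000647) rested in part on pppNS library 3. Without that library they were 2.34, 1.95 and 1.44, and without pppNS library 1 they were 4.69, 4.33 and 2.54, each still past the threshold. Against poly(I:C), the same genes differed from pppNS by 3.66, 3.68 and 2.05, and by 2.38, 2.32 and 1.43 without pppNS library 3.

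The carrier alone was judged by vehicle against naive mice. In limma 0 of 7 members passed, where 0.05% of all genes did, and 1 member had an unadjusted p under 0.05. edgeR and DESeq2 called 0 members. That member was Slfn8, with both vehicle libraries above all naive libraries and a log2 difference of 1.01 ± 0.30 (limma adjusted p = 0.386). Slfn5 (2.04 ± 0.99), Slfn9 (1.56 ± 0.93) and Slfn3 (0.91 ± 0.49) also had both vehicle values above all 3 naive ones, as 24.9% of all genes did. Slfn4 (0.13), Slfn1 (0.12) and Slfn2 (0.03) were at overlapping levels in the 2 control groups. Without naive library 3 the differences of Slfn5, Slfn9 and Slfn3 were 1.26, 1.04 and 0.52, and without naive library 1 they were 2.63, 2.00 and 1.203.

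The order of abundance within the family was different in control and treated spleens. Levels were compared between genes per kb of annotated exon. In vehicle mice the mean was 75.3 CPM per kb for Slfn2, 16.98 for Slfn1, 15.5 for Slfn8, 8.37 for Slfn5, 2.69 for Slfn4, 1.06 for Slfn9 and 0.618 for Slfn3. Slfn1 and Slfn8 overlapped there and the other neighbours in that order did not. After SLR10 the order was Slfn2 (315 CPM per kb), Slfn5 (240), Slfn8 (169), Slfn4 (134), Slfn1 (109), Slfn9 (17.2) and Slfn3 (6.17), and no neighbours overlapped in the 3 libraries. Slfn1 was thus the second in vehicle and the fifth after SLR10, while Slfn2 led and Slfn9 and Slfn3 closed the order in all 6 groups. The mean order after SLR14 and poly(I:C) was that of SLR10. There the libraries overlapped between Slfn2 and Slfn5, between Slfn5 and Slfn8, between Slfn8 and Slfn4, and between Slfn4 and Slfn1. Within each single library, however, Slfn2 was above Slfn5 and Slfn5 above Slfn8. Slfn4 was above Slfn8 in SLR14 library 3 (200 and 190 CPM per kb). Slfn1 was above Slfn4 in poly(I:C) library 2 (99.8 and 78.3 CPM per kb).

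**Figure D4:**
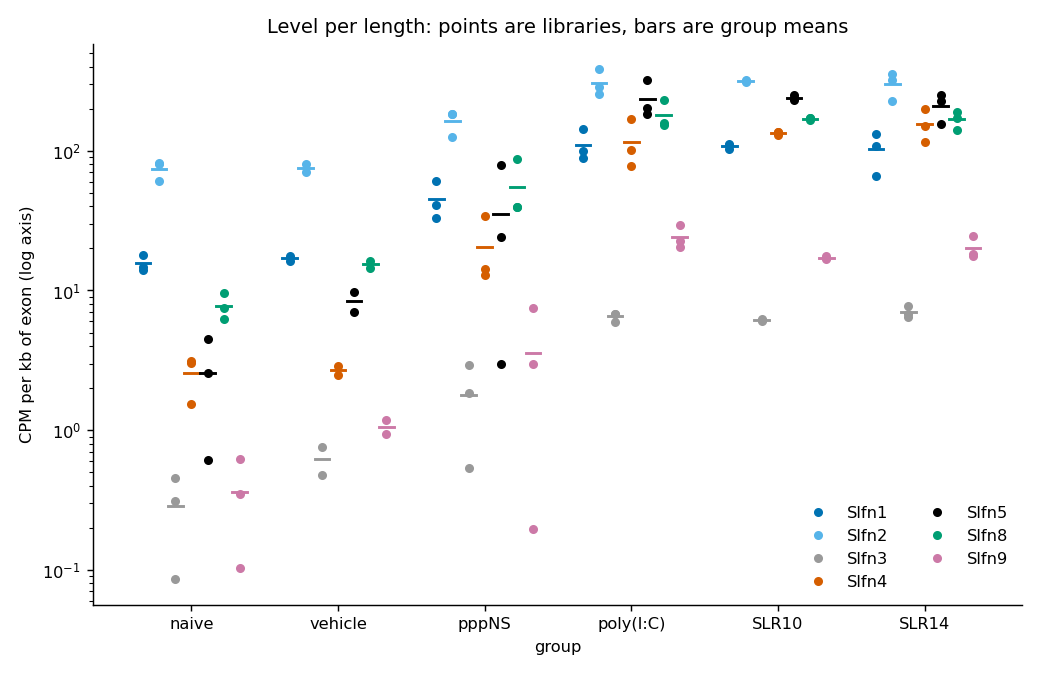
CPM per kb of annotated exon on a log axis for each member, group by group, with a point for each library and a bar at the group mean. Slfn2 is the highest in every group, and Slfn4 and Slfn5 lie below Slfn1 in naive and vehicle mice and above it after SLR10.

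Across the 17 libraries the log2 levels of the 7 members ran together, with pairwise Pearson r from 0.85 (Slfn2 with Slfn9) to 0.99. These points share the treatment groups, so r describes the common rise together with differences between libraries of a group, and no p is given. In pppNS library 3 and naive library 3, Slfn5 (-3.85 and -2.34), Slfn9 (-4.10 and -1.57) and Slfn3 (-1.87 and -1.18) lay below their group mates on the log2 scale. Slfn2 did not (0.27 and 0.24). The part of such libraries in r was not tested. The closest pairs were Slfn1 with Slfn2 (0.99), Slfn5 with Slfn9 (0.99) and Slfn5 with Slfn3 (0.99). Slfn8 with Slfn9, the pair with the most similar promoters, had 0.94.

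Outside the family, the genes with the most similar pattern were found by the highest r over the same 17 libraries, with the same limits. For Slfn4 these were Gbp6 (r = 0.995), Icam1 (0.995) and Zbp1 (0.994), a guanylate-binding protein, an adhesion molecule and a sensor of Z-form nucleic acid. For Slfn8 they were Parp14 (0.996), Mx1 (0.995) and Trim30c (0.994), and for Slfn5 Trim14 (0.994), Baz1a (0.994) and Gbp9 (0.993). Slfn9 was closest to Etnk1 (0.994), Trim14 (0.990) and Jak2 (0.989), and Slfn3 to Sfmbt1 (0.993), Ranbp2 (0.991) and Setdb2 (0.990). Slfn1 was closest to Amica1 (0.996), Zfp365 (0.992) and Phf11b (0.991), and Slfn2 to Phf11b (0.995), Tpst1 (0.995) and Pyhin1 (0.991). Trim14 was on the lists of both Slfn5 and Slfn9, and Phf11b on those of both short-class genes.

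Of the other Schlafen genes in the table, Slfn10-ps and Slfn5os ran with the members and Slfn14 did not. Slfn14, known from platelets and red cell precursors, was at 2.12 to 3.01 CPM after SLR10 and at 3.16 and 8.68 CPM after vehicle. It reached 69.8 CPM in SLR14 library 2 and 111 and 53.5 CPM in poly(I:C) libraries 2 and 3, the libraries with high erythroid transcripts, and was at 0.508 CPM in poly(I:C) library 1. After pppNS it was at 29.1, 22.1 and 30.2 CPM, all above both vehicle libraries. Library 3 of pppNS, with the highest summed erythroid markers of all libraries, was close to library 1 in Slfn14. By mean log2 level the erythroid markers stood at 9.77 in pppNS library 3 and 7.92 in pppNS library 1, and were higher in poly(I:C) library 2 (9.96). No comparison with vehicle passed for Slfn14, and its r with the 7 members was -0.17 to -0.04. Its closest genes were Sox6 (0.990), Epb4.2 (0.990) and Fhdc1 (0.988). Slfn10-ps lay at 5.39 to 6.96 CPM after SLR10 against 1.63 and 3.12 CPM after vehicle (log2 difference 1.28 ± 0.55, limma adjusted p = 0.0793). Its r was 0.94 with Slfn3, 0.95 with Slfn5 and 0.97 with Slfn9. It was lower with Slfn8 (0.87), Slfn4 (0.84), Slfn1 (0.80) and Slfn2 (0.74). Of the transcript stretches of Slfn10-ps, 19.7% were found in another gene of the family, 13.5% in Slfn9 and 11.8% in Slfn8. The part of shared reads in these r was not tested. Slfn5os, annotated on the strand opposite Slfn5, had 0 reads in both vehicle libraries and 0.936 to 1.83 CPM after SLR10. Its r with the members was 0.88 to 0.96. Slfn5os passed the filter on low values through the groups where it is high, so no test result is given for it. The kit was stranded per the labels but the strand setting of the counting is not given in the sources used here. Reads of Slfn5 and Slfn5os might therefore not be told apart, and the highest Slfn5os level in any library was 1.98 CPM.

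The genes around the cluster were counted as well. Of 23 tested genes outside the family within 500 kb of the cluster, 10 were higher and 3 lower after SLR10 than after vehicle, where 20.2% and 19.2% of all genes were. Their median log2 difference was 0.41. At the far end were the chemokine genes Ccl4 (6.76), Ccl3 (5.71) and Ccl5 (3.07), which recruit leukocytes, and Ccl6 (-1.54), which fell. Nle1, on the other side of Slfn5, rose by 1.67. Closer to the cluster, Ap2b1 (0.35, limma adjusted p = 0.0660), which lies beyond Slfn14, did not pass, and Unc45b (0.79, 0.0184), between Nle1 and Slfn5, did. After pppNS 2 of the 23 were higher, Ccl4 (4.02) and Ccl3 (3.26), where 2.96% of all genes were. These neighbours were named after their values were seen.

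**Figure D5:**
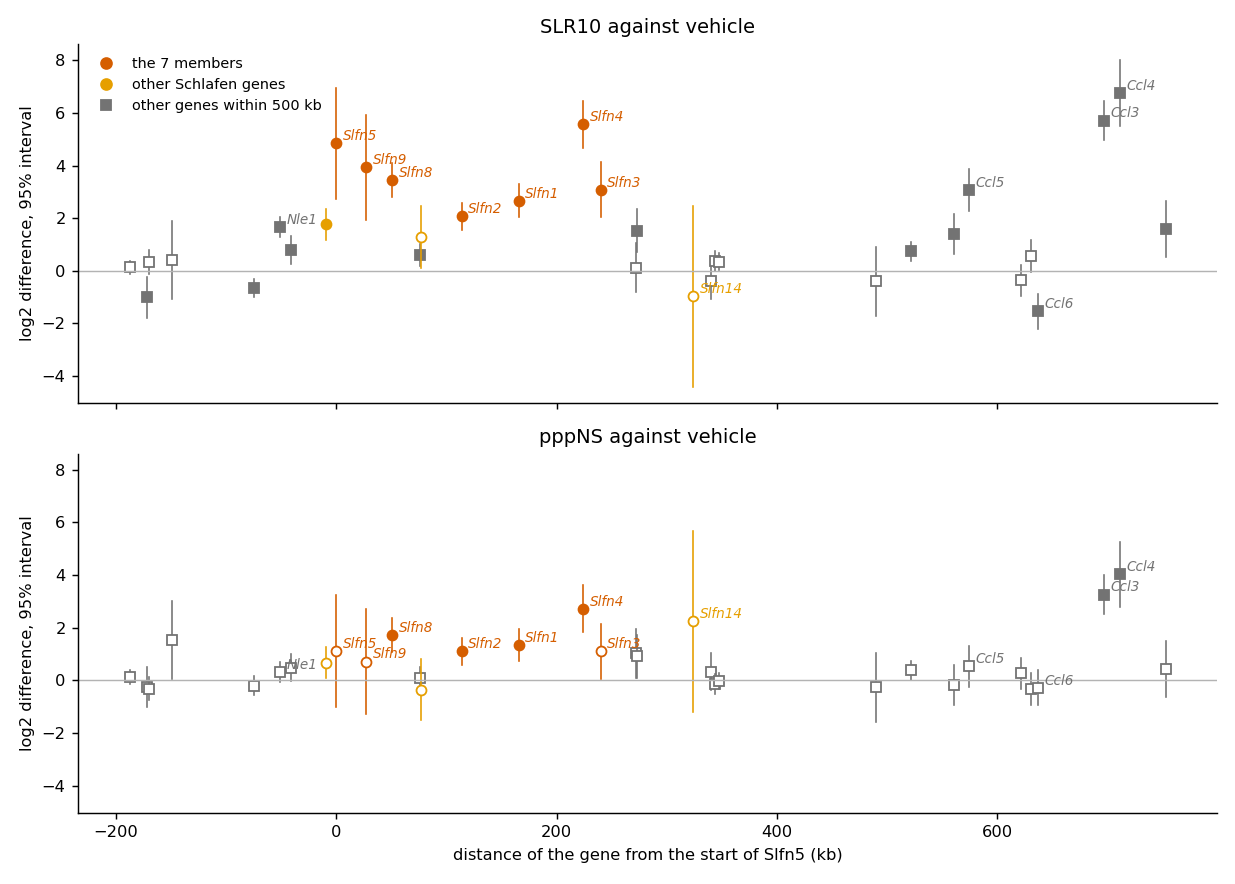
Log2 difference from vehicle with its 95% interval for genes around the cluster after SLR10 and after pppNS, by distance of the gene's lower end from that of Slfn5 (kb), filled where the adjusted p was under 0.05. The 7 members are all filled after SLR10, and the neighbours outside the family lie between -1.54 and 1.67 except Ccl5 (3.07), Ccl3 (5.71) and Ccl4 (6.76).

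The interferon pathway around the family was described with 3 lists of genes. Of all genes, 20.2% were higher after SLR10, 19.3% after SLR14, 18.6% after poly(I:C) and 2.96% after pppNS. After SLR10 19.2% were lower. Of 57 interferon-stimulated genes tested, 56 rose after SLR10, 56 after SLR14, 54 after poly(I:C) and 50 after pppNS, with Oasl1 (5.24 after SLR10 and 3.53 after pppNS), Irf7 (4.45 and 2.76), Ifit3 (5.22 and 3.66) and Oas3 (5.37 and 3.48) as examples. Their median log2 difference was 3.75 after SLR10 and 2.22 after pppNS. The interferon ligands were near 0 in the control libraries, and 12 of the 13 tested were at 0 in at least 1 library. They passed the filter on low values through the groups where they are high, so no count of rises is given for them. After pppNS their mean log2 level was -0.65 to -0.40, against -0.88 in both vehicle libraries. That is near the floor of the scale, and limma, edgeR and DESeq2 differed in their calls there, so no count is read for these ligands. Their summed level was 3.20 to 7.85 CPM after pppNS, above the 0.854 and 1.00 CPM of vehicle and far below the 808 to 1187 CPM of SLR10. Most of the pppNS and vehicle sums was Ifng, the gene of interferon gamma, at 2.36 to 6.03 CPM after pppNS and at 0.775 and 1.00 CPM after vehicle. Of 20 interferon receptors and signal transducers, 10 were higher and 2 lower after SLR10, and 7 higher and 1 lower after pppNS (1.35% of all genes were lower). The transcription factors Irf7 (4.45 after SLR10) and Irf1 (3.29) and the inhibitors Usp18 (5.36) and Socs1 (5.29) were among those that rose after both agents.

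Genes of the processes in which Schlafen proteins are known to act were also counted, beside the same shares of all genes (20.2% higher and 19.2% lower after SLR10, 2.96% higher after pppNS). Of 20 effectors that restrict RNA or its translation, such as Ifit2 (6.02 after SLR10 and 3.85 after pppNS), 20 rose after SLR10 and 16 after pppNS. This list shares genes with the interferon-stimulated list. Of 15 genes that process or modify transfer RNA, 7 were higher and 1 lower after SLR10, and 0 passed after pppNS in limma (4 at an unadjusted p under 0.05, 0 in edgeR and 1 in DESeq2). Elac2, which trims transfer RNA ends, rose by 1.26, Nsun2 by 1.35 and Trmt61a by 1.59 after SLR10, and Trmt2b fell by 1.42. Each of these 4 changes was smaller than that of any Schlafen member after SLR10.

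Markers of cell types were counted as well. Of all genes, 20.2% were higher and 19.2% lower after SLR10, and 2.96% were higher after pppNS. Of 16 T cell markers 0 were higher and 6 lower after SLR10, with a summed level of 485 to 504 CPM against 642 and 719 CPM after vehicle. Of 10 B cell markers 0 were higher and 4 lower, with 2009 to 2175 CPM against 2777 and 2800 CPM. Of 13 neutrophil markers 6 were higher after SLR10 and 5 after pppNS, with 575 to 723 CPM after SLR10 and 370 to 1327 CPM after pppNS against 204 and 209 CPM after vehicle. After pppNS edgeR called 2 of these markers and DESeq2 8, in either direction. Their mean log2 level was 4.41, 4.08 and 5.46 in the pppNS libraries. Of 12 inflammatory monocyte markers 4 were higher and 6 lower after SLR10, with 1340 to 1418 CPM against 1158 and 1415 CPM. Conventional dendritic cell markers had the lowest median of the lists of cell types after SLR10 (-1.24), with 8 of 10 lower and 0 higher, and summed to 86.1 to 92.8 CPM after SLR10 and 145 to 161 CPM after pppNS against 204 and 209 CPM after vehicle. Of 11 red pulp macrophage markers 0 were higher and 5 lower, with 1202 to 1293 CPM against 1575 and 1845 CPM. Of 9 NK cell markers 2 were higher and 4 lower, and of 7 plasmacytoid dendritic cell markers 2 were higher and 2 lower. Of the markers tested in these lists, 0 were at 0 in any library. The part of such shifts in the Schlafen levels was not tested.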

How the data were processed

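Spleen RNA was sequenced in 17 libraries from stranded mRNA kits, per the labels. The deposited values are a signal that the authors named edgeR normalized CPM. The submitters' processing notes name the builds GRCm38 and mm10 and the tools edgeR, HTSeq, SAMtools 1.4, TopHat2 2.0.6, TopHat and FastQC; annotation version and strand setting are not given in the sources used here. Values were whole multiples of 1 read (within 0.01 reads for at least 99.99% of values), and the recovered reads served edgeR 4.0.16 and DESeq2 1.42.0. Of 39184 lines, 5 without a name, 699 named #N/D, 27 with date-like names and 113 repeats were left out. The lines without a gene name held 28.1% to 46.1% of reads.

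The log2(CPM + 0.5) of 14010 genes (at least 1 CPM in 2 libraries) was fitted with limma 3.58.1 (R 4.3.3) with a mean-variance trend, all 17 libraries in one model, 9 comparisons, Benjamini-Hochberg over all genes and a threshold of 0.05. The script was tested on simulated data. Intervals are 95%; errors are SE. Named genes are the members, other Schlafen genes, up to 4 genes per list by adjusted p after SLR10, and the 3 nearest genes by r. The members and lists were chosen with earlier results of these data known. Replicate numbers did not pair libraries across all groups (median residual correlation 0.03 for equal and -0.03 for different numbers). Between pppNS and naive, which meet only where naive is the control, equal numbers correlated at 0.27 to 0.75 in all 3 pairs (different numbers -0.71 to 0.52). That fit was therefore also run with the replicate block.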

Additional observations from a re-analysis of the deposited data

How the results depend on the processing

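Of 1211 log2 differences of a member under an alternative, 1150 kept their direction and side of the threshold, 19 lost and 12 gained a call, and 30 changed sign. No call changed for SLR10, SLR14 or poly(I:C) against vehicle or for both SLRs against pppNS under any alternative run. The replicate block left the counts at 7, 7, 7 and 4 members against vehicle, 0 in vehicle against naive, SLR14 against SLR10 and SLRs against poly(I:C), and 7 in both comparisons with pppNS. The count for pppNS against vehicle was 4. It was 0 with only the groups compared, 1 to 6 with 1 library left out at a time, and 7 without the third pppNS and naive libraries, a choice made after seeing the data. Leaving out a vehicle library leaves 1 vehicle library, and leaving out the erythroid-high libraries leaves 1 poly(I:C) library. In limma such a single library is taken to vary like the other groups. With naive in place of vehicle the pppNS count was 6, and 6 also with the replicate block. Quantile scaling lost Slfn2 in pppNS against vehicle (adjusted p = 0.0884) and in poly(I:C) against pppNS (0.167). The count for poly(I:C) against pppNS was 1 with only the groups compared, which leaves fewer libraries for the spread.

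No sign that changed belonged to a called difference, and the cause was not tested. In pppNS against vehicle, Slfn9 ran from -0.30 to 2.08 with 1 library left out. In vehicle against naive, such ranges were -0.12 to 0.12 for Slfn2 and -0.18 to 0.30 for Slfn4, which was -0.18 without the third libraries. In SLR14 against SLR10 they were -0.36 to 0.14 for Slfn1, -0.22 to 0.10 for Slfn2, -0.0226 to 0.37 for Slfn4 and -0.12 to 0.10 for Slfn8. Without the erythroid-high libraries Slfn1, Slfn2 and Slfn8 were 0.14, 0.10 and 0.10, and with paralogs summed Slfn8 was 0.017. In SLRs against poly(I:C), quantile scaling gave 0.0189 for Slfn1, 0.0424 for Slfn5 and 0.0143 for Slfn8. Leaving out the erythroid-high libraries, which leaves 1 poly(I:C) library, gave -0.23 for Slfn2, -0.0923 for Slfn3 and -0.15 for Slfn4. With 1 library left out the ranges were -0.21 to 0.13 (Slfn1), -0.11 to 0.18 (Slfn2), -0.0478 to 0.0448 (Slfn3), -0.20 to 0.22 (Slfn5) and -0.18 to 0.11 (Slfn8). Depth limits the low values: Slfn9 had 33 reads in pppNS library 3 and 23 in naive library 3.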
